A study of Mus musculus with 34 samples.

Results

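The numbered zinc finger genes are mouse genes whose symbol is Zfp followed only by digits. They were followed in 3T3-L1 cells, a mouse fibroblast line that turns into fat cells in culture. Of 336 such symbols in the RNA table, Zfp423 and Zfp521 were left out and 82 had a mean below 4 on the log2 tags per kb scale over the 12 RNA libraries. The remaining 252 genes are described here, out of 10860 symbols that reach the same level and 17515 transcripts in the table. The members were chosen by their mean RNA level over these libraries, so that level is a description. Zfp667, Zfp937 and Zfp467 lay just inside the limit at 4.03, 4.02 and 4.01, and Zfp983, Zfp775 and Zfp551 just outside it at 3.98, 3.95 and 3.94.

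The study asked what the KDM5 histone demethylases do during the first days of adipocyte differentiation. RNA and H3K4me3 ChIP libraries came from cells carrying a lentiviral hairpin against luciferase (shLuc, the control) or hairpins against Kdm5a, Kdm5b and Kdm5c together (shKdm5ABC). Virus was added to both arms 4 days ahead of the cocktail and left for 24 h, with 6 ug/mL of polybrene. Each arm was sampled at day 0, at 4 hours and at day 2 of induction with dexamethasone, insulin, IBMX and serum, with 2 libraries a group. KDM5A ChIP covered the same 3 times and KDM5C ChIP day 2, with 2 libraries each and no transduction stated, and 1 input library entered the tables. Cells for all ChIP and input libraries were crosslinked with 0.2 mM DSG (45 min) and 1% formaldehyde (10 min). All cells are 1 line, and whether the numbered experiments are independent cultures is not stated, so each p measures only the spread between these libraries.

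Zinc finger proteins of the C2H2 type hold a zinc ion in each finger and read DNA with tandem arrays of fingers, and some fingers bind RNA or protein instead. Many mammalian members also carry a KRAB domain, which recruits the co-repressor TRIM28 and through it the methyltransferase SETDB1 to silence retroelements and imprinted loci. Others activate genes, repress them without KRAB, or work in RNA decay, splicing and ribosome assembly. KDM5 enzymes remove methyl groups from lysine 4 of histone H3, a mark of active promoters. Which members carry a KRAB domain was not analysed here.

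Promoter letters were available for 212 of the 252 members, as 260 windows that run from 250 bases before to 50 bases after a start (RefSeq, GRCm38.p6). Their median GC content was 55.2% and their median ratio of observed to expected CpG 0.67, against 52.7% and 0.38 over all 32851 windows, which include genes not expressed in these cells. The ETS motif CCGGAAG, searched like all others on both strands, lay in 53 windows (20.4%, against 8.86% of all windows). A long NRF1 motif lay in 25 (9.62%, against 4.6%), and a long ZNF143 motif in 5 (1.92%, against 0.286%). The GC box GGGCGG lay in 46.5% against 35.7%, the CCAAT box in 46.2% against 37.4%, and the TATA motif TATAAA in 7.69% against 13.6%. The E-box CACGTG was found in 6.92% against 7.15%. Matches of different motifs may overlap, and a match is a description of letters, not of binding.

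The 6 promoters below carry the results that follow, and each run is the 250 bases before the start with matches to any of the 11 motifs in capitals. Zfp326 (chr5:105876318-105876567, plus strand) and Zfp36 (chr7:28379229-28379478, minus strand) had the highest rises of RNA at 4 hours. Zfp57 (chr17:37003416-37003665, plus strand, the first of 3 listed starts) had the lowest change at day 2. Zfp668 (chr7:127876837-127877086, minus strand, the first of 2) had the most KDM5A at day 2, and Zfp692 (chr11:58306819-58307068, plus strand) is one of the 2 members with the highest KDM5C. Zfp91 (chr19:12796124-12796373, minus strand) is among the 4 members with the highest RNA.
Zfp326: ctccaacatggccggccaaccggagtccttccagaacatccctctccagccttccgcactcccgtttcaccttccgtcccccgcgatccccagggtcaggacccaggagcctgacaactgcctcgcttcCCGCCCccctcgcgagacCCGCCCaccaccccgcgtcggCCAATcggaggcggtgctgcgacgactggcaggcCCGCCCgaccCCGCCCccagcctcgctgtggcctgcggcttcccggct
Zfp36: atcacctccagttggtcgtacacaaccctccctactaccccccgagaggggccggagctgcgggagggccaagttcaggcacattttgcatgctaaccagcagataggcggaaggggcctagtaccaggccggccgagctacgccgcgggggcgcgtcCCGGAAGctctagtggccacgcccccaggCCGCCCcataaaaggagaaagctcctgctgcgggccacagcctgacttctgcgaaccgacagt
Zfp57: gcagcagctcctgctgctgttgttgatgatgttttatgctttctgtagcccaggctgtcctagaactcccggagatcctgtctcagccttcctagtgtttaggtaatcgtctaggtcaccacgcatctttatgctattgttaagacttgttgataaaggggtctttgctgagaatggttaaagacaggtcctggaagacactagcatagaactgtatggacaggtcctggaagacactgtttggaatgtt
Zfp668: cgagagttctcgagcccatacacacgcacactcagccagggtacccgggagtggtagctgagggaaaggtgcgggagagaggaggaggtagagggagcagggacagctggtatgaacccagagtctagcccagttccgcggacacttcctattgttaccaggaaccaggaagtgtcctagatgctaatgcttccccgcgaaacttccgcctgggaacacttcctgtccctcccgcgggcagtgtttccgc
Zfp692: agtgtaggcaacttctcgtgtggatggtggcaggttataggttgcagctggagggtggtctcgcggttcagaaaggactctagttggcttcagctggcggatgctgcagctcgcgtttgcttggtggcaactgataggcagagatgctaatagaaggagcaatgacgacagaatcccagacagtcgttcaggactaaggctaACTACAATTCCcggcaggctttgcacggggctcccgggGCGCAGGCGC
Zfp91: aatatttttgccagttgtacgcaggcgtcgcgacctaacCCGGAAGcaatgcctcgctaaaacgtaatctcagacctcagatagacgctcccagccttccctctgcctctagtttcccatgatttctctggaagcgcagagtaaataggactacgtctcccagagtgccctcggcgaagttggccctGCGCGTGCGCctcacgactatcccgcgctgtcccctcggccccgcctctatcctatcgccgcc
The capitals show GC boxes and a CCAAT box in Zfp326, an ETS motif and a GC box in Zfp36, ZNF143 and NRF1 motifs in Zfp692, and ETS and NRF1 motifs in Zfp91. The runs of Zfp57 and Zfp668 hold no match to the 11 motifs.

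Kdm5a, Kdm5b and Kdm5c RNA was lower in shKdm5ABC than in shLuc cells at each time, with 38.0% to 63.9% of the control level left (limma, all 9 adjusted p under 0.05). In shLuc cells 6 of 6 fat cell markers (Pparg, Cebpa, Fabp4, Adipoq, Plin1, Cidec) rose by day 2, by 2.71 to 8.28 on the log2 scale, and all 5 precursor markers fell. Of the macrophage markers, Adgre1 and Ptprc had group means of -5.57 to -4.66 and Csf1r of 0.27 to 1.36, while Cd68 stood between 4.35 and 5.85 and was higher in shKdm5ABC cells at day 0 (difference 1.5, adjusted p = 0.0144) and 4 hours. Besides Cd68, the marker genes called with knockdown were the fat cell gene Cebpa, higher at day 0 (1.09, adjusted p = 0.0466), and the precursor gene Pdgfra, higher at day 2 (1.19, adjusted p = 0.023). Library 2 of shKdm5ABC day 0 had more fat cell RNA than library 1, with Adipoq at 5.80 against 3.05, Plin1 at 4.73 against 2.18 and Cidec at 6.98 against 3.68. Group means of muscle Ckm and of endothelial Pecam1, Kdr and Tek stayed at or below 0.22, and those of Cdh5 and of smooth muscle Myh11 ranged from -0.68 to 1.73 and from -0.56 to 0.64. Acta2, which fibroblasts also express, ranged from 3.77 to 10.90. The part of these markers in the results was not tested. Tag totals ranged from 8.37 M to 13.6 M for H3K4me3, from 3.87 M to 17.6 M for KDM5A, and were 2.95 M and 8.13 M for KDM5C, while the depth of the RNA libraries is unknown.

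The members were weakly to moderately expressed. Their mean level had a median of 5.91 log2 tags per kb (range 4.01 to 9.11), against 7.27 over the 10860 symbols. Zfp207, a spindle assembly factor also called BuGZ, had the highest level at 9.11, followed by the RNA-binding protein gene Zfp106 at 8.81, Zfp326 at 8.79 and the ubiquitin ligase gene Zfp91 at 8.72. The last 3 differ by less than 0.1, within the spread of their own libraries. Across the 12 libraries a member's values spanned a median of 1.04 log2 units, from 0.29 to 5.41, and Zfp41 (5.41), Zfp57 (5.24) and Zfp467 (3.83) spanned the most.

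Within 4 hours of induction, more members fell than rose in shLuc cells. A gene is called changed at a Benjamini-Hochberg adjusted p under 0.05 from limma's fit over all tested genes. By that rule 57 of 252 members fell (22.6%, against a background of 21.6% of 13534 genes) and 26 rose (10.3%, against 20.7%). The share that fell lay near the background and the share that rose below it. The median change of the members was -0.116 on the log2 scale, against -0.019 over all tested genes. Without library 1 or 2 of shLuc day 0, 53 or 55 members were called in place of 83. The count that rose was 16 to 19 without any 1 of the 4 compared libraries (16 without library 2 of shLuc day 0), and the count that fell 34 to 45 (34 without library 1 of shLuc day 0). For refits without single libraries, here and below, the share over all genes is not given. Their lower counts are therefore not results about the members. With all libraries and the experiment number as a block, 83 members fell and 41 rose at 4 hours (backgrounds 30.1% and 28.4%). In these bulk samples, fewer cells of a kind and less RNA per cell cannot be told apart.

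Zfp326 and Zfp36 led the rise. Zfp326 encodes a subunit of the DBIRD complex, which couples splicing to RNA polymerase II elongation. Its RNA stood at 7.80 and 7.66 at day 0, 10.54 and 10.47 at 4 hours, and 8.18 and 8.06 at day 2 in shLuc cells. The 4 hour libraries thus lay above every other shLuc library, and the difference from day 0 was 2.78 (SE 0.10, adjusted p = 1.27e-07), or 6.86-fold. Zfp36 encodes tristetraprolin, which binds AU-rich elements and speeds the decay of inflammatory and growth factor mRNAs. It went from 6.56 and 6.83 to 9.28 and 8.5 at 4 hours, a rise of 2.2 (SE 0.21, adjusted p = 4.09e-05). At day 2 it was still above day 0, at 7.81 and 8.06 (difference 1.24, adjusted p = 6.85e-04).

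Zfp330, whose protein is nucleolar, rose by 1.59 at 4 hours (adjusted p = 1.91e-05), from 7.75 and 7.74 to 9.53 and 9.15. Zfp948 rose by 1.32 (adjusted p = 5.39e-05), from 7.35 and 7.15 to 8.60 and 8.53. For both genes the 2 groups did not overlap. Zfp791 rose by 1.89 (SE 0.48, adjusted p = 0.00989), but its 4 hour libraries stood at 6.74 and 5.25. Without the first of them the rise was 1.15 and its adjusted p 0.0777.

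Zfp41 and Zfp467 had the lowest changes at 4 hours. Zfp41 stood at 7.46 and 7.03 at day 0, 2.76 and 2.80 at 4 hours, and 4.42 and 4.26 at day 2. It fell by 4.47 at 4 hours (SE 0.27, adjusted p = 2.56e-06), which is 22.1-fold lower, and part of the level had returned by day 2 (rise of 1.56 from 4 hours, adjusted p = 9.66e-04). Zfp467, which is known to favour adipocyte over bone fate in marrow precursors, went from 5.40 and 5.61 to 2.64 and 2.87 and then to 4.08 and 4.14. Its fall at 4 hours was 2.75 (SE 0.21, adjusted p = 9.25e-06). Zfp395 followed the same course, from 8.46 and 8.35 to 6.5 and 6.31 and back to 7.96 and 7.44. These 3 genes had their lowest libraries at 4 hours in both arms.

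Zfp827, whose product recruits the NuRD co-repressor, fell by 2.34 at 4 hours (adjusted p = 3.83e-05) and did not return. Its libraries stood at 6.97 and 7.09, then 4.87 and 4.52, then 3.82 and 3.75. Zfp30, a KRAB gene linked to adipogenesis, went from 6.15 and 6.20 to 4.10 and 4.47, a fall of 1.89 (adjusted p = 0.00221), and stood at 3.76 and 4.47 at day 2.

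**Figure D1:**
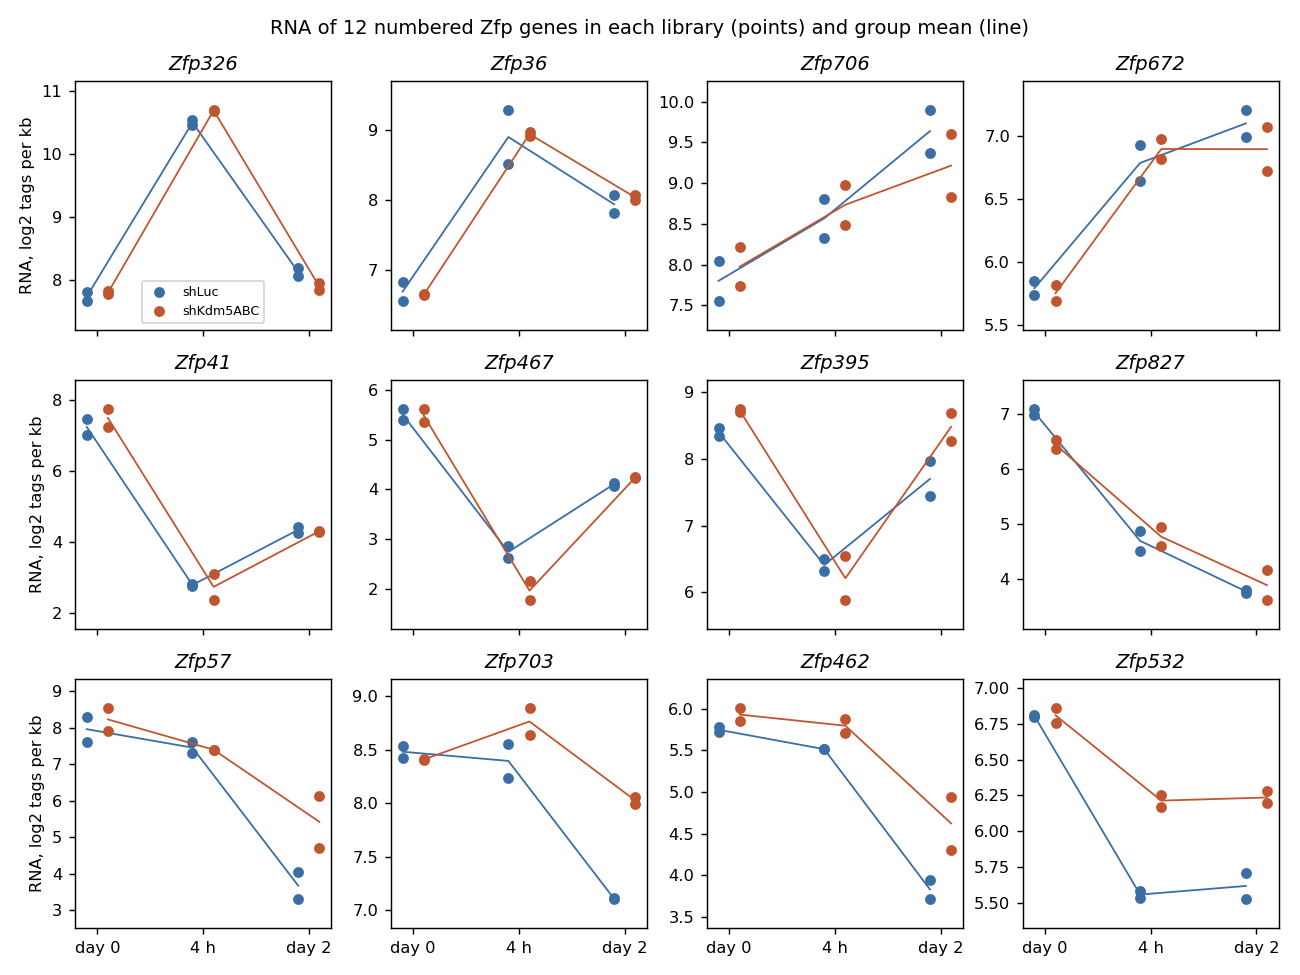
RNA of 12 members in log2 tags per kb (vertical axes, each with its own range) at day 0, 4 h and day 2; points are single libraries, lines join the means of 2 libraries, blue is shLuc and orange shKdm5ABC. Zfp326 and Zfp36 peak at 4 h, Zfp41, Zfp467 and Zfp395 are lowest there, and the shKdm5ABC points of Zfp57, Zfp703, Zfp462 and Zfp532 lie above the shLuc points at day 2.

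At day 2 the balance was further towards lower RNA. In shLuc cells 80 of 252 members had fallen from day 0 (31.7%, against a background of 27.8%) and 23 had risen (9.13%, against 27.1%). The median change was -0.250, against -0.014 over all tested genes. A lower mean was found for 169 of 252 members (67.1%), against 48.3% of all symbols with a mean of at least 4, which were not matched in level. The median standard error was 0.195 for the members and 0.200 for all tested genes. Setting the median of all genes equal in every library left 72 fallen and 27 risen (backgrounds 25.4% and 29.8%). With the experiment number as a block, 105 fell and 33 rose (backgrounds 33.6% and 33.1%). Without any 1 of the 4 compared libraries 15 members were called higher in place of 23, and 59 to 66 lower. Both time comparisons in shLuc cells use the same day 0 libraries.

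Zfp57, which keeps methylation at imprinted control regions, had the lowest change at day 2. It stood at 8.29 and 7.62 at day 0, 7.60 and 7.30 at 4 hours, and 4.04 and 3.30 at day 2. The day 2 libraries lay far below the others, and the fall from day 0 was 4.28 (SE 0.43, adjusted p = 1.86e-05), or 19.5-fold. Nearly all of it came after 4 hours (fall of 3.78 from 4 hours, adjusted p = 5.74e-05). Zfp827 fell by 3.25 from day 0 (adjusted p = 2.12e-06), Zfp41 by 2.91 (adjusted p = 1.24e-05), Zfp30 by 2.06 (adjusted p = 7.44e-04) and Zfp651 by 1.93 (adjusted p = 1.72e-05).

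Zfp706 rose most by day 2, from 7.55 and 8.05 through 8.33 and 8.81 to 9.38 and 9.90 (difference 1.84, SE 0.31, adjusted p = 6.27e-04). In each of the 3 groups library 2 was the higher one, and no day 2 library overlapped day 0. Zfp961, a KRAB gene, rose by 1.66 (adjusted p = 2.11e-04), from 5.90 and 5.74 to 7.41 and 7.55. Zfp672 rose by 1.30 (adjusted p = 9.49e-05), from 5.85 and 5.74 to 6.99 and 7.21, most of it by 4 hours. Zfp784 rose by 1.01 (adjusted p = 0.00101), from 4.93 and 4.58 to 5.83 and 5.70.

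Between 4 hours and day 2, 55 members fell (background 23.5%) and 26 rose (background 22.9%). With the experiment number as a block, 81 fell and 42 rose (backgrounds 30.5% and 30.2%). Without library 1 of shLuc 4 hours 17 rose. Zfp367 rose by 2.05 (adjusted p = 2.79e-04), from 3.81 and 4.08 to 5.81 and 6.18, after lower values at 4 hours than at day 0. Zfp101 rose by 1.46 (adjusted p = 3.74e-05). Zfp326 fell by 2.39 from its 4 hour level (adjusted p = 2.28e-07), and Zfp52 fell by 1.98 (adjusted p = 1.53e-04), from 6.13 and 6.60 to 4.56 and 4.19.

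The shKdm5ABC arm, whose libraries are separate from those of shLuc, gave a similar picture. At 4 hours 63 members fell (25%, background 23.7%) and 28 rose (11.1%, background 22.4%), and at day 2 69 fell (27.4%, background 23.1%) and 14 rose (5.56%, background 22.0%). At 4 hours 51 genes fell in both arms, which is 89.5% of the shLuc list and 81.0% of the shKdm5ABC list, and 23 rose in both (88.5% and 82.1%). At day 2 62 fell in both (77.5% and 89.9%) and 11 rose in both (47.8% and 78.6%). No member was called in opposite directions, and the changes of the 252 members had a Pearson r of 0.96 at 4 hours and 0.93 at day 2 between arms. That r is across genes, which share libraries and are not independent. The overlap of calls and the r over all tested genes are not given. Whether this similarity between arms is particular to the members was therefore not tested. Without single shKdm5ABC libraries the count of 91 at 4 hours became 54 to 71 and that of 83 at day 2 became 48 to 60. At 4 hours the count was 56 or 54 without library 1 or 2 of day 0 and 60 without library 1 of 4 hours, and at day 2 it was 48 without either library of day 0. The members that rose at 4 hours numbered 16 without library 2 of day 0, and those that rose by day 2 numbered 7 without library 1 of day 0 or library 2 of day 2 and 9 without library 2 of day 0.

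The genes named above changed in the same direction in this arm, by amounts that differed between arms for some. At 4 hours Zfp326 rose by 2.91 (adjusted p = 1.14e-07), Zfp36 by 2.29 (adjusted p = 2.61e-05) and Zfp791 by 1.76 (adjusted p = 0.0126). Zfp41 fell by 4.78, Zfp467 by 3.51 and Zfp395 by 2.52 (adjusted p = 1.64e-06, 1.83e-06 and 2.52e-05). At day 2 Zfp36 rose by 1.39, Zfp706 by 1.24 and Zfp961 by 1.20, and Zfp41 fell by 3.20, Zfp57 by 2.81 and Zfp827 by 2.55. The change by day 2 differed between arms by 1.48 for Zfp57 (adjusted p = 0.359, and 0.0316 with the block) and by -0.60 for Zfp706 (0.694, and 0.0166 with the block). The call of Zfp791 was lost without library 2 of day 0 (adjusted p = 0.0673) or library 1 of 4 hours (rise of 1.11, adjusted p = 0.104). That of Zfp706 was lost without library 1 of day 0 (adjusted p = 0.0686) or library 2 of day 2 (adjusted p = 0.0800).

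**Figure D2:**
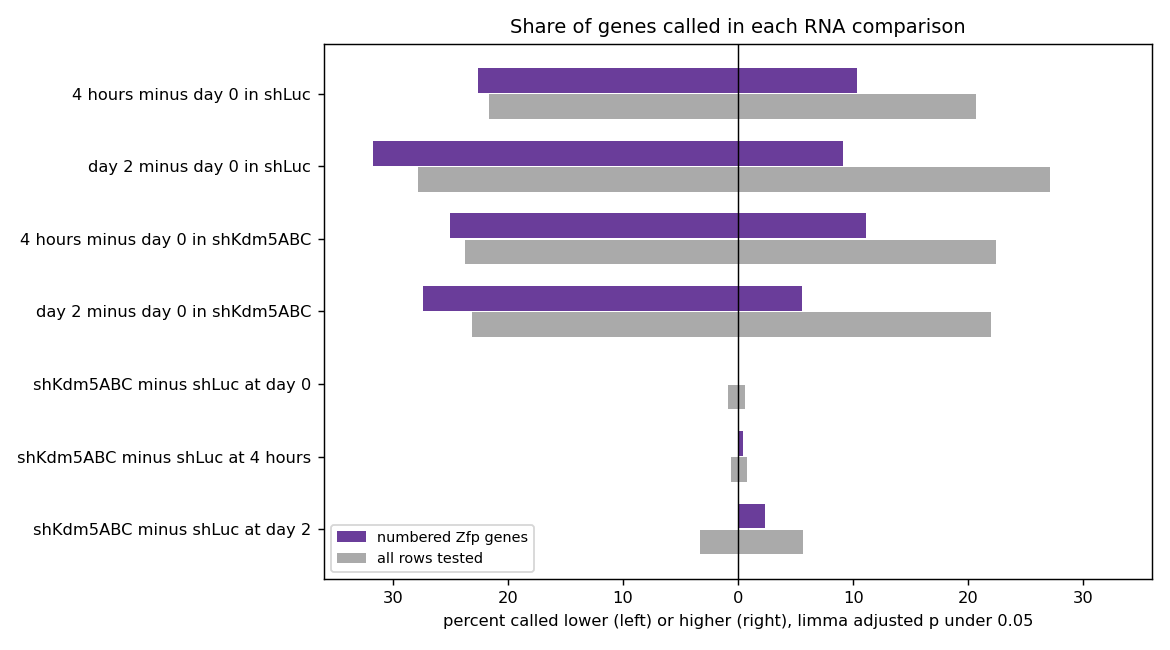
Percent of genes called lower (left of 0) or higher (right of 0) by limma in 7 RNA comparisons, for the 252 members (purple) and all 13534 tested genes (grey). Over time the members' bars are longer to the left than to the right (31.7% and 9.13% at day 2 in shLuc), and with knockdown at most 2.38% of members are called.

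Some members whose proteins act on RNA rose, Zfp36 and Zfp326 among them. The role lists were chosen with earlier results of these data known. The counts by role that follow stand against backgrounds of 20.7% rising and 21.6% falling at 4 hours, and of 27.1% and 27.8% at day 2, and lists this short were not tested against them. Of 5 genes for RNA binding and decay, 3 rose and none fell at 4 hours in shLuc cells, and 3 rose at day 2. Besides Zfp36 and Zfp326 these were Zfp346, a binder of double-stranded RNA, at 4 hours (rise of 0.67, adjusted p = 0.00162) and Zfp106 at day 2 (rise of 0.52, adjusted p = 0.0233). Zfp638, a splicing-linked cofactor of C/EBP proteins, changed by 0.31 at 4 hours (adjusted p = 0.0592). Of 3 genes for ribosome assembly and quality control, Zfp593 rose by 1.28 and Zfp598, a ubiquitin ligase for collided ribosomes, by 0.66 at 4 hours (adjusted p = 0.00144 and 0.0288). Zfp622, a maturation factor of the large subunit, changed by 0.27 (adjusted p = 0.11) and fell by 0.47 by day 2 (adjusted p = 0.0099). Of the 3 spindle and cell cycle genes, Zfp830 rose by 0.61 at 4 hours (adjusted p = 0.0066) and Zfp207 by 0.76 at day 2 (adjusted p = 2.32e-04), and Zfp335 was not called at either time.

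Of the 7 measured members that have been linked to fat cells, 4 fell at 4 hours (Zfp467, Zfp395, Zfp30 and Zfp407) and 1 rose (backgrounds 21.6% and 20.7%). At day 2 4 had fallen and none had risen (backgrounds 27.8% and 27.1%). Zfp407, which supports PPARG target genes, fell by 1.01 at 4 hours (adjusted p = 5.89e-04), from 5.74 and 5.74 to 4.63 and 4.83, and stood at 5.34 and 5.48 at day 2. Zfp516, an activator of the thermogenic gene program, rose by 0.61 at 4 hours (adjusted p = 0.00677) and had a day 2 change of 0.11. Zfp217, a transcriptional repressor, fell by 0.39 by day 2 (adjusted p = 0.0389).

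Of 12 measured regulators without a KRAB domain, 1 rose and 3 fell at 4 hours, and 1 rose and 4 fell at day 2, which is near the backgrounds for the falls. Zfp281 fell by 0.81 by day 2 (adjusted p = 4.02e-04), with 7.23 and 7.17 at day 0 against 6.27 and 6.51. Zfp687 and Zfp592, which form a complex with Zfp532, went opposite ways at 4 hours, with a fall of 0.80 (adjusted p = 0.0033) and a rise of 0.46 (adjusted p = 0.0135). Of 8 measured KRAB genes that act on imprinting or retroelements, 1 fell at 4 hours, and 3 fell and 1 rose by day 2. Beside Zfp57 and Zfp961, Zfp738 fell by 1.18 (adjusted p = 0.00232) and Zfp809, a silencer of murine retroviruses, by 0.45 (adjusted p = 0.0368). Zfp445, the other known imprinting factor of this kind, stood between 7.97 and 8.39 in all 12 libraries and was not called.

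Of 26 listed co-repressor and heterochromatin genes, which include the partners that KRAB proteins recruit, 9 rose and 8 fell at 4 hours in shLuc cells (34.6% and 30.8%, backgrounds 20.7% and 21.6%). By day 2 10 rose and 1 fell (38.5% and 3.85%, backgrounds 27.1% and 27.8%), with a median change of 0.259 against -0.014 over all tested genes. Setdb1 rose by 1.02 and Trim28 by 0.37 at day 2 (adjusted p = 5.99e-05 and 0.0112). Other zinc finger families also had more falls than rises by day 2 in shLuc cells. Of 46 numbered Zbtb, Zscan and Zkscan genes 4 rose and 10 fell by day 2 (8.7% and 21.7%, median -0.192), and of 12 numbered Klf genes 3 rose and 7 fell (25% and 58.3%, median -0.741). At 4 hours 3 of the 46 rose and 11 fell (6.52% and 23.9%, median -0.239), and 4 of the 12 Klf genes rose and 5 fell (33.3% and 41.7%, median 0.127). The Zbtb, Zscan and Zkscan genes thus rose less often than the background at both times, as the members did. No test of these lists against the members or against all genes was made.

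Knockdown of the KDM5 enzymes moved few members. At day 0 none of 252 was called by limma (background 0.606% higher and 0.901% lower). An unadjusted limma p under 0.05 was found for 9 (3.57%, against 12.7% of all tested genes). At 4 hours 1 was higher (0.397%, background 0.798%) and none lower (background 0.643%), with 17 at an unadjusted p under 0.05 (6.75%, against 13.4%). At day 2 6 were higher (2.38%, background 5.66%) and none lower (background 3.34%), with 27 at an unadjusted p under 0.05 (10.7%, against 25.3%). With the experiment number as a block the counts were 0 higher and 2 lower at day 0, 6 and 4 at 4 hours, and 17 and 7 at day 2. The backgrounds of that fit were 4.38% and 5.05%, 4.58% and 5.10%, and 13.9% and 14.2%. Without library 1 or 2 of shLuc day 2 or library 1 of shKdm5ABC day 2, 1 member was called at day 2, and 4 were called without library 2 of shKdm5ABC day 2.

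Zfp703, a co-repressor gene of the NET family, had the most stable difference. At day 2 it stood at 7.11 and 7.10 in shLuc cells and at 8.05 and 8.0 in shKdm5ABC cells, with no overlap. The difference was 0.92 (SE 0.13, adjusted p = 0.00417), or 1.89-fold, and it was called without each single library. With only the 2 compared groups in the fit its adjusted p was 0.0785. None of the 6 members was called in that fit, whose share over all genes is not given. The gene had fallen by 1.37 from day 0 in shLuc cells (adjusted p = 1.37e-05) and by 0.38 in shKdm5ABC cells (adjusted p = 0.0366). Its differences between arms were -0.07 at day 0 and 0.37 at 4 hours (adjusted p = 0.247, and 0.0463 with the block).

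Zfp532 was called higher at both later times. At 4 hours it stood at 5.58 and 5.54 in shLuc and 6.17 and 6.25 in shKdm5ABC cells (difference 0.65, SE 0.13, adjusted p = 0.0461). At day 2 the values were 5.71 and 5.53 against 6.19 and 6.28 (difference 0.62, adjusted p = 0.0213), and at day 0 they overlapped. Leaving out any 1 of the 4 compared libraries ended the call, with adjusted p of 0.171 to 0.194 at 4 hours and 0.0506 to 0.142 at day 2.

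The largest difference was that of Zfp57, with 4.04 and 3.30 in shLuc and 6.12 and 4.71 in shKdm5ABC cells at day 2. It came to 1.75 (SE 0.43, adjusted p = 0.0346). Its groups did not overlap, and without the higher shKdm5ABC library the difference was 1.04 (adjusted p = 0.226). Without library 1 of shLuc it was 2.12 (adjusted p = 0.0583), and without library 2, 1.37 (adjusted p = 0.204). Zfp462, a chromatin regulator of pluripotent and neural cells, was higher by 0.79 (adjusted p = 0.0466), with 3.71 and 3.95 against 4.94 and 4.31. Its difference was 0.48 without library 1 of shKdm5ABC day 2 (adjusted p = 0.312), 0.68 without library 1 of shLuc (0.194) and 0.91 without library 2 (0.125). Zfp369 was higher by 0.53 (adjusted p = 0.0467) and Zfp715, named because it completes the 6, by 0.51 (adjusted p = 0.0433). The calls of Zfp462 and Zfp369 were also lost with the median of all genes set equal (adjusted p = 0.0518 and 0.0542), and those of Zfp57 and Zfp462 with no filter on low values (0.0695 and 0.0608). The call of Zfp369 was lost without any 1 of the 4 libraries (adjusted p 0.132 to 0.191).

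Whether the knockdown acted differently at day 2 than at day 0 was tested directly. No member was called by limma (background 0.310% higher, 0% lower), with 7 at an unadjusted p under 0.05 (2.78%, against 11.9% of all tested genes). With the block 4 were called higher and 1 lower (backgrounds 4.76% and 2.91%). These were Zfp703 (difference of effects 0.99, adjusted p = 0.00412), Zfp57 (1.48, adjusted p = 0.0316), Zfp532 (0.61, adjusted p = 0.0487), Zfp651 (0.59, adjusted p = 0.0492) and Zfp706 (-0.60, adjusted p = 0.0166), named after their values were seen. Among the role groups, knockdown at day 2 called 3 of 12 regulators without KRAB (Zfp703, Zfp462 and Zfp532) and 1 of 8 imprinting and retroelement genes (Zfp57), and no member of the other 4 groups (backgrounds 5.66% higher and 3.34% lower). Of the genes left out of the members, Zfp521 differed by 1.31 (adjusted p = 0.0179) and Zfp423 by 0.06 (adjusted p = 0.924) at day 2.

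Most members had KDM5A at their promoter. A KDM5A peak lay within 1000 bp of the start of 228 of 252 members (90.5%, 95% Wilson interval 86.2% to 93.5%), against 79.5% of the 10608 other symbols at the same RNA level. An H3K4me3 peak was found for 221 (87.7%, 83.1% to 91.2%), against 73.0%, and a KDM5C peak for 51 (20.2%, 15.7% to 25.6%), against 16.5%. Within 500 bp the shares were 81.3% for KDM5A and 70.6% for H3K4me3, against 66.0% and 51.9% of the other symbols. Both KDM5A and H3K4me3 marked 214 members, KDM5A alone 14, H3K4me3 alone 7 and neither 17. A peak carries the name of its nearest gene, so a promoter shared with a neighbour can count for that neighbour. Zfp36, Zfp791 and Zfp532 are among 16 members credited with no peak in any table.

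The amount of KDM5A differed widely among members, with means over the 6 libraries from 3.6 to 950.8 tags per 10 M. The median was 187.8 tags, against 207.7 for the other symbols, and input had a median of 11.7 in the same peaks. Zfp668, whose product acts in DNA repair, had the most at day 2. Its peak (chr7:135017833-135022956, mm9) had 1346 and 499 tags at day 0, 975 and 646 at 4 hours, 1330 and 908 at day 2, and 38.7 in input. Its RNA stood between 5.46 and 5.86 in all 12 libraries. Zfp408, Zfp830 and Zfp513 followed with 926 and 613, 965 and 526, and 810 and 610 tags at day 2. The lowest 4 with a peak were Zfp652 (13.6 and 3.9 tags), Zfp608 (4.5 and 19.3), Zfp931 (15.9 and 13.1) and Zfp740 (15.9 and 17.0), with input at 0 to 1.8.

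KDM5C was weaker. Its peaks at members had a median of 20.2 tags, with 1.8 in input. Zfp692 had 122 and 48.0 tags in the 2 libraries and Zfp451, a SUMO ligase gene, 98.4 and 68.9, so the order of these 2 differed between the libraries. Of the 51 members with KDM5C, 46 also had both KDM5A and H3K4me3, and 3 had no KDM5A peak. Only 26 of 252 (10.3%) had a KDM5C peak of at least 20 tags, near the 8.64% of the other symbols.

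KDM5A and H3K4me3 tags followed each other over the members more closely than either followed RNA. Pearson r of the log values was 0.698 between KDM5A and H3K4me3 (214 members), 0.494 between H3K4me3 and RNA (221) and 0.220 between KDM5A and RNA (228). The points share libraries and peak width, and genes are not replicates. With the members split by KDM5A at day 2 into 4 groups of 57, the lowest group (8.7 to 141.2 tags) held 26 that fell and 2 that rose by day 2 in shLuc cells, with a median change of -0.43. The highest group (299.8 to 1119.2 tags) held 12 that fell and 9 that rose, with a median of -0.05. The groups between them held 14 and 19 that fell and 5 and 3 that rose, with medians of -0.23 and -0.25. Over all tested genes 27.8% fell and 27.1% rose. Other genes were not split by KDM5A, so whether this order is particular to the members was not tested. With knockdown at day 2 the 4 groups had medians of 0.07, 0.03, 0.07 and -0.02. The RNA level also rose over these groups, from a median of 5.40 to 6.43, and its part was not tested.

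**Figure D3:**
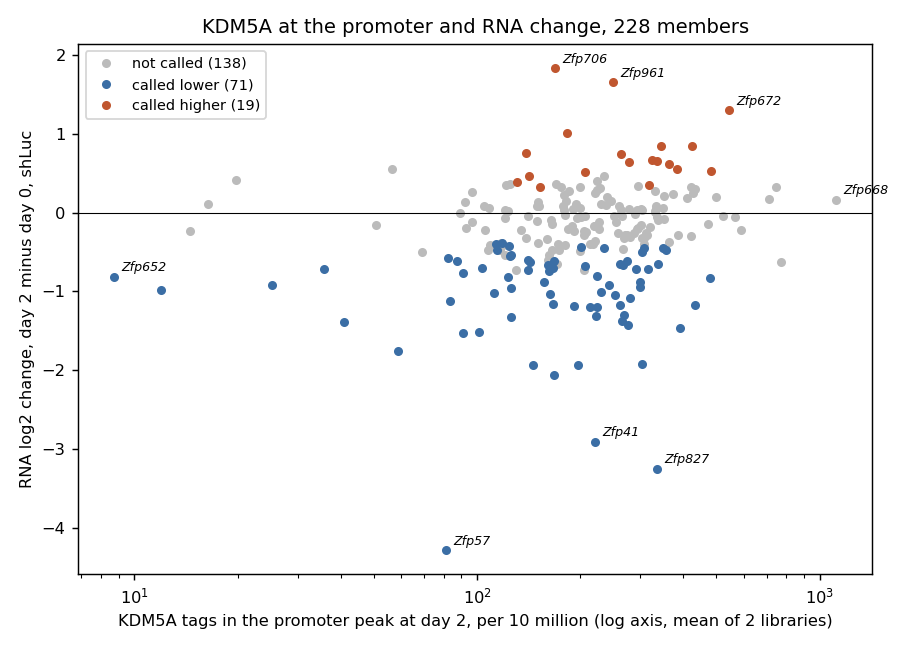
KDM5A tags per 10 M in the promoter peak at day 2 (horizontal, log axis, mean of 2 libraries) against log2 RNA change from day 0 to day 2 in shLuc cells (vertical) for 228 members; blue points were called lower (71), orange higher (19), grey not called (138). Over all tested genes 27.8% were called lower and 27.1% higher. Zfp668 at the right edge shows little RNA change.

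KDM5A at these promoters was not seen to change with time. No member peak was called by limma at 4 hours (background 0.0606% of 87525 peaks) or at day 2 (background 0.173%). At an unadjusted limma p under 0.05 there were 1 and 0 of 228, against 5.23% and 6.34% of all peaks. edgeR on the recovered reads also called 0 at both times (backgrounds 0.0857% and 1.22%). At an unadjusted edgeR p under 0.05 there were 22 and 5 of 228, against 5.72% and 10.3% of all peaks. With the median of peaks of at least 20 tags on average set equal, 1 member peak was called at 4 hours and 0 at day 2 (backgrounds 0.297% and 0.767%). The spread was wide, since library 2 of day 0 had a median of 110.2 tags over the members against 253.1 in library 1. The median change was 0.000 at 4 hours and 0.323 at day 2, against 0.033 and 0.398 for all 11573 peaks near a start. The direction depended on the scaling, with -0.332 and -0.146 under edgeR's normalization. The SE of the change of the 4 strongest peaks was 0.91 to 1.09 on the log2 scale, so changes of that size were not detectable.

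The H3K4me3 columns have to be read with their labels in doubt. Across 8588 genes, the deviation of each labelled H3K4me3 group from the mean was compared with that of each RNA group. For only 2 of 6 groups was the highest correlation with the RNA group of the same label (shLuc day 0, r = 0.55, and shKdm5ABC day 2, r = 0.34). The columns labelled shKdm5ABC 4 hours followed RNA of shLuc day 2 most closely (r = 0.73, and -0.27 with their own label). Those labelled shLuc day 2 followed RNA of shLuc 4 hours (0.50 against 0.03), and those labelled shLuc 4 hours followed RNA of shKdm5ABC day 0 (0.63 against -0.13). Those labelled shKdm5ABC day 0 had 0.29 with both their own label and RNA of shKdm5ABC 4 hours. Time and arm are therefore given below only as labels, and no column was reassigned.

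Over all 12 columns, whatever their label, the members had a median of 574.9 tags per 10 M and a median peak width of 2121 bp, against 663.1 tags and 2414 bp for other symbols. Zfp516 had the most with a mean of 2556.67 tags, followed by Zfp668 with 1743.34. Zfp57 had 739 and 594 tags in the columns labelled shLuc day 0, 883 and 699 in shLuc 4 hours and 666 and 537 in shLuc day 2. In those labelled shKdm5ABC it had 817 and 662 at day 0, 260 and 287 at 4 hours and 522 and 503 at day 2. The 2 columns labelled shKdm5ABC 4 hours were the lowest of the 12 (difference from shLuc 4 hours -1.52, SE 0.17, adjusted p = 1.16e-04). RNA of Zfp57 was lowest in shLuc day 2.

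Zfp41 and Zfp467 were low under 2 labels. Zfp41 had 358 and 409 tags in the columns labelled shLuc day 2 and 357 and 433 in shKdm5ABC 4 hours, against 554 to 1148 in the other 8. Zfp467 had 244 and 360, and 295 and 345, against 516 to 952 in the other 8. Their differences between the arms labelled 4 hours were -1.40 and -1.32 (adjusted p = 6.33e-05 and 0.00171). RNA of both was lowest at 4 hours and second lowest at day 2 in both arms. Zfp706 was highest in the columns labelled shKdm5ABC 4 hours, at 1036 and 944 tags (difference 0.36, adjusted p = 0.0469), and its RNA was highest in shLuc day 2.

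**Figure D4:**
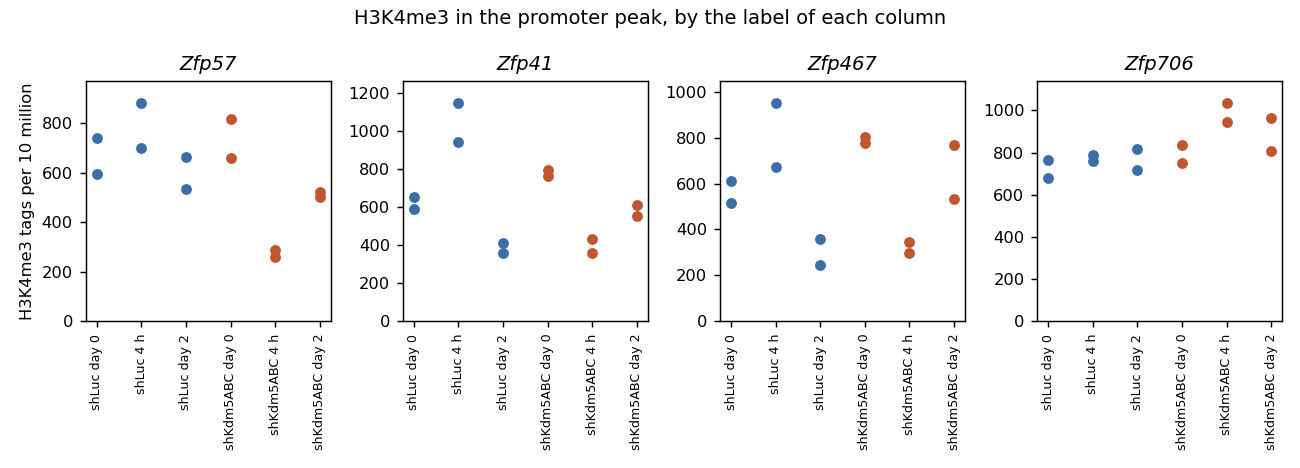
H3K4me3 tags per 10 M in the promoter peak of 4 members (vertical axes from 0), for the 2 columns of each label; blue is labelled shLuc and orange shKdm5ABC. The columns labelled shKdm5ABC 4 h are the lowest for Zfp57 (260 and 287), low for Zfp41 and Zfp467, and the highest for Zfp706.

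By label, 33 of 221 member peaks were called higher and 0 lower with knockdown at day 0 (backgrounds 32.7% and 0.196%). The counts were 1 and 38 at 4 hours (1.62% and 34.3%) and 23 and 0 at day 2 (23.8% and 0.243%). For labelled shLuc cells they were 29 and 0 at 4 hours (27.8% and 0.00934%) and 1 and 1 at day 2 (1.31% and 0.663%). With the median of all peaks set equal the counts, in the same order, became 2 and 1, 7 and 17, 0 and 0, 2 and 0, and 1 and 1. The backgrounds of that setting were 9.47% and 1.18%, 9.25% and 23.2%, 7.03% and 0.748%, 4.78% and 0.121%, and 1.32% and 0.673%. edgeR on the recovered reads gave 2 and 2, 14 and 13, 0 and 0, 1 and 0, and 1 and 1 (backgrounds 8.09% and 1.86%, 13.4% and 21.9%, 6.46% and 1.11%, 4.0% and 0.215%, and 1.32% and 0.663%), so the excess of lower over higher calls at 4 hours was lost. With the experiment number as a block the counts were 82 and 6, 5 and 81, 90 and 0, 91 and 0, and 6 and 6 (backgrounds 58.7% and 1.76%, 7.61% and 50.6%, 52.1% and 1.01%, 59.2% and 0.178%, and 8.29% and 7.14%). Leaving out any 1 compared column gave 7 to 20 calls at day 0 (in place of 33), 23 to 29 at 4 hours and 4 to 12 at day 2, and 5 to 14 and 0 in labelled shLuc cells. The median change of the members turned from 0.138 to -0.133 at day 0, from -0.151 to 0.086 at 4 hours, and from 0.179 to -0.070 at day 2, while that of all peaks went from 0.288, -0.233 and 0.246 to 0.017, 0.004 and -0.002. Beyond the genes above, the highest differences at day 0 were in Zfp692 (1.16), Zfp3 (1.00) and Zfp593 (0.89), and at day 2 in Zfp467 (1.11), Zfp597 (1.04) and Zfp13 (0.94). In labelled shLuc cells Zfp692, Zfp13 and Zfp3 were highest at 4 hours (0.99, 0.92 and 0.90), and at day 2 Zfp623 was higher by 0.45 and Zfp41 lower, with a difference of -0.70.

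The members lie in groups along the chromosomes. Of 236 with a peak that gives a position (mm9), 117 fell into 19 groups of at least 3 with gaps of at most 500 kb, and 89 had no neighbour. Chromosome 7 held 52 members and chromosome 17 held 34. The longest run, chr17:21145596-23735662, held 19 members, among them Zfp52 and Zfp948, and 6 fell and 2 rose by day 2 in shLuc cells. In the run of 11 at chr13:67181841-67855417, 6 fell and none rose (median change -0.66), and in the run of 11 at chr7:30551391-30906288, which holds Zfp30, 5 fell and none rose (-0.65). In the run of 10 at chr17:32923740-33765685, which holds Zfp101, 1 fell and 1 rose (0.01). Over all 19 groups 33 of 117 members fell (28.2%) and 5 rose (4.27%), and of the 89 without a neighbour 32 fell (36%) and 11 rose (12.4%). Of all tested genes 27.8% fell and 27.1% rose, and no test between the members in groups and those without a neighbour was made. Similarity in sequence between the members of a run was not analysed. Reads of near-identical fingers, where present, can be split between members.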

How the data were processed

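RNA, H3K4me3, KDM5A, KDM5C and input libraries of 3T3-L1 cells were used, 34 samples in all, and the input labelled with virus was not analysed here. The authors deposited RNA as log2 tags per kb, with library scaling and any pseudocount not given in the sources used here. They deposited ChIP signal as tags per 10 M in peaks, with the distance of each peak to the nearest start, a score in bp. Per the submitters' processing notes, STAR, Bowtie2, Subread, HOMER, DESeq2 and the mm9 build were used, with no role or order given.

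RefSeq IDs were matched to symbols through a RefSeq gene table for 17253 of 17515 rows and through the peak tables for 144, and 118 kept their ID. Symbols were kept once, by the highest mean. Genes with a log2 value of at least 1 in at least 2 libraries (13534) entered 1 limma fit over the 6 RNA groups, with a mean-variance trend (limma 3.58.1, R 4.3.3). Peaks were fitted as log2(tags + 1) in the same way, per assay. P-values were adjusted by Benjamini and Hochberg over each whole table. A smallest exact permutation p of 0.333 is possible with 2 against 2 libraries, so no such test was made. ChIP tags were whole multiples of 1 read (100% of values within 0.1 of a read), and edgeR 4.0.16 on those reads was an alternative. The RNA and KDM5A fits were run on simulated data with independent noise in each library. The pairing of libraries described below was not simulated, so that run does not test the fits under it. Intervals on shares are 95% Wilson intervals and cover counting error only.

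Same-numbered libraries deviated together in RNA (r of 0.381 to 0.657 over 15 pairs of groups) and H3K4me3 (0.504 to 0.790), so the experiment numbers pair them, as the data rather than the labels show. KDM5A did not pass that check (0.0470 to 0.333 over 3 pairs). The members and gene lists were chosen with earlier results of these data known. Named genes are the called members whose libraries do not overlap, up to the 5 highest and 5 lowest changes in each main RNA comparison and 3 and 3 in the others and in ChIP, the 4 with the highest RNA, the 4 with the most and the 4 with the least KDM5A, and the role lists. Genes with the most KDM5C or H3K4me3 and those in chromosome runs were named after their values were seen.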

Additional observations from a re-analysis of the deposited data

How the results depend on the processing

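With the experiment number as a replicate block, RNA calls were 2 for knockdown at day 0, 10 at 4 hours, 24 at day 2, 123 for day 2 against 4 hours and 5 for the difference of effects, and H3K4me3 calls were 88, 86 and 90 for knockdown by label, and 91 and 12 for time. With only the compared groups in the fit, knockdown calls were 0 at 4 hours and 0 at day 2 (share over all genes not given). With medians set equal, H3K4me3 calls were 3, 24, 0 and 2 (knockdown at day 0, 4 hours and day 2, and 4 hours against day 0), and KDM5A had 1 at 4 hours. edgeR gave 4, 27, 0 and 1 H3K4me3 calls in the same order, with 14 higher and 13 lower for knockdown at 4 hours. The shares over all genes or peaks in the block, equal-median and edgeR settings are given by direction above, and they also changed with the setting. For H3K4me3 labelled knockdown at day 0, 32.7% of all peaks were called higher in the main fit, 58.7% with the block and 8.09% under edgeR. These counts alone are therefore not results about the members. The shares of members with a peak became 81.3% (KDM5A) and 70.6% (H3K4me3) within 500 bp, and 10.3% for KDM5C at 20 tags. Those of the other symbols were 66.0%, 51.9% and 8.64%. The cause was not tested.

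Without single libraries, RNA calls ranged from 53 to 64 and 74 to 81 in shLuc cells at 4 hours and day 2, from 61 to 66 between these times, and from 54 to 71 and 48 to 60 in shKdm5ABC cells. For knockdown they ranged from 0 to 0, 0 to 0 and 1 to 4, and for the difference of effects from 0 to 0. H3K4me3 calls ranged from 7 to 20, 23 to 29 and 4 to 12 for knockdown, and from 5 to 14 and 0 to 0 for time, and KDM5A calls from 0 to 1 and 0 to 0. Of 44 named RNA changes none reversed, 36 kept the call without each library and 8 lost it without at least 1. The shares over all genes or peaks in the refits without single libraries are not given. Their lower counts are therefore not results about the members. The RNA depth is unknown.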
